A study of Mus musculus with 12 samples.

Results

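The comparison described here is the loss of Tim4 in large peritoneal macrophages of the mouse, averaged over resting and tumour-challenged cells. It used all 12 libraries of the 12 in the study. The difference between Tim4KO and WT was estimated within naive cells and within challenged cells, and the mean of both differences was tested, which set 6 libraries of one genotype against 6 of the other. Its subject is the set of genes that differed in the same direction in both conditions. Of 15943 genes tested, 46 passed (0.289%), and these are described below.

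Large peritoneal macrophages are the resident macrophages of the peritoneal cavity, sorted here as cells with high F4/80 and low MHC class II. All mice were female. The groups WT naive and Tim4KO naive carry no treatment in the labels. WT ID8 and Tim4KO ID8 mice received ID8ZGO cells into the peritoneal cavity at 8 weeks of age, and their macrophages were taken 24 h later. ID8 is a mouse ovarian tumour line, and this form of it expressed the fluorescent protein ZsGreen and the model antigen OVA. From the challenged mice, ZsGreen+ macrophages alone were sorted, in both genotypes, so the challenged groups were compared among cells that carried tumour-derived fluorescence. Each group held 3 libraries. The design of the Tim4KO allele, the strain, littermate status, the age of the naive mice and the hour of collection are not given in the sources used here. Nor do the labels say that the libraries of a group came from separate mice, so the p-values measure the spread between these libraries, which may in part be technical.

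Tim4, encoded by Timd4, is a receptor that binds phosphatidylserine on dying cells and tethers them to the macrophage before they are engulfed. It also marks long-lived resident macrophages. Several of the genes that differed between genotypes belong to the circadian clock. In that clock CLOCK and BMAL1 (encoded by Arntl) activate genes through a DNA element called the E-box. Among these genes are Per1, Per2 and Per3, which feed back on CLOCK and BMAL1, the nuclear receptors Nr1d1 and Nr1d2, which repress Arntl, and Dbp. Dbp and its relatives Tef and Hlf act in turn through the D-box, an element on which Nfil3 acts as a repressor. Genes of the Dbp phase and genes of the Arntl phase peak at opposite times of the day.

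The promoters of the clock genes that passed the test are shown because these genes differed together. Each sequence runs 5′ to 3′ on the strand of the gene from 250 bases before to 50 bases after a transcription start, from RefSeq on GRCm38.p6, and capitals mark an E-box (CACGTG) or a D-box (TTATGNAA).
Per1, chr11:69098699-69098998, plus strand: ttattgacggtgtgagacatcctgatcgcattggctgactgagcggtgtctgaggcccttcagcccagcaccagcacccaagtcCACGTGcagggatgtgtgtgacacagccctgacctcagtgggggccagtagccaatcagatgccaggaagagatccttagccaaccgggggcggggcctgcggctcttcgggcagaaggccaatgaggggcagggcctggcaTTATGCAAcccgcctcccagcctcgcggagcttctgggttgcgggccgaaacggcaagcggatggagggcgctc
Per3, chr4:151044616-151044915, minus strand: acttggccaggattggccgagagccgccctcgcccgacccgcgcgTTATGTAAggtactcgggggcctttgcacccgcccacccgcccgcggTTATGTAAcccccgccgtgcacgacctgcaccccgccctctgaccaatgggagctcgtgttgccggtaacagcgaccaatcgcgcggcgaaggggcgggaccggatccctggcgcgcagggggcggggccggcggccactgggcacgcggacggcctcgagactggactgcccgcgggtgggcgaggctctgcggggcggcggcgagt
Tef, chr15:81802423-81802722, plus strand: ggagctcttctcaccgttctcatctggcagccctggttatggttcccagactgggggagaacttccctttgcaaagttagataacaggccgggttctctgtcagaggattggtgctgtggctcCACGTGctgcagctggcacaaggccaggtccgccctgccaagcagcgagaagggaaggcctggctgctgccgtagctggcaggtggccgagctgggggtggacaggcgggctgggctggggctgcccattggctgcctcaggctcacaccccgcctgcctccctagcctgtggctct
Dbp, chr7:45704997-45705296, plus strand: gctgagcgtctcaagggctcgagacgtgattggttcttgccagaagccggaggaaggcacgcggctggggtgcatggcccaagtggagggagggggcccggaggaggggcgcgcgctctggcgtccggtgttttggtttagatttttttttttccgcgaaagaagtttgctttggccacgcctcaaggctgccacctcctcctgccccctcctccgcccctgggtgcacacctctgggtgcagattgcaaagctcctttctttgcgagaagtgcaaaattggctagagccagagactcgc
The Per1 window held 1 E-box and 1 D-box, the Per3 window held 2 D-boxes, and the Tef window held 1 E-box. The other Tef window, at chr15:81811164-81811463, held 1 E-box as well. None of these letters occurred in the Dbp window or in the other Per1 window, at chr11:69099902-69100201, which says nothing about elements elsewhere in these genes. Both strands were searched. Over all 32851 promoters of this length, 7.15% held CACGTG, 3.38% held TTATGNAA, 0.119% held the related D-box TTACGTAA, and 0.143% held an E-box together with a D-box of either form. No motif overlapped another in the windows shown. Of the 14 genes of the Dbp phase that were listed, 12 had a promoter in the table, and 4 of these 12 held an E-box and 2 a D-box. A match is a description of the sequence and does not show that a factor binds there.

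Library totals ran from 7358559 to 23170244 counts. The marker genes of macrophages summed to 62130 to 72680 counts scaled to the library total (CPM) in the naive libraries and to 28810 to 35490 CPM in the challenged ones. The largest member, Lyz2, read 40530 to 47490 CPM in naive and 10730 to 14990 in challenged libraries. Members did not move together between conditions, and Adgre1 read 2569 to 3789 CPM in naive and 3932 to 6299 in challenged libraries. Markers of epithelial or tumour cells summed to at most 29.7 CPM and those of T and NK cells to at most 9.68 CPM in any library. Those of small peritoneal macrophages, dendritic cells and monocytes summed to 18.2 to 90.4 CPM, with overlap of the genotypes in both conditions. Mast cell and eosinophil markers summed to 18.3 to 43 CPM in WT naive against 15.4 to 36.2 in Tim4KO naive, and without overlap to 3.80 to 6.70 in WT ID8 against 8.70 to 10.5 in Tim4KO ID8, and their part in the results was not tested. Of 54 markers of any cell type that were tested, 0 were called between genotypes. The library WT ID8 3 stood apart: its 40 cell cycle genes summed to 5727 CPM, against at most 1547 CPM elsewhere. It also had the largest total and the fewest reads in olfactory and vomeronasal receptor genes of low mean level (6.25 CPM summed, against 41.9 to 836 CPM). Calls of named genes and counts of gene lists that changed when it was left out are given beside the results.

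Timd4 (ENSMUSG00000055546), the targeted gene, was read first in every library. It stood at 1178, 1279 and 1489 CPM in WT naive and at 7.71, 7.32 and 7.21 CPM in Tim4KO naive. In challenged cells it stood at 1115, 1452 and 882.5 CPM in WT ID8 and at 1.92, 1.85 and 1.38 CPM in Tim4KO ID8. Each of the 12 libraries thus had the Timd4 level of its label, with low residual counts in Tim4KO. The mean difference was -8.44 on the log2 scale (SE 0.17, edgeR adjusted p = 5.08e-14), and Timd4 was called in each of the fits tried.

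In Tim4KO, 22 genes rose (0.138% of those tested) and 24 fell, Timd4 among them (0.151%). Of the 46, 8 were called whichever library was left out, and the remaining 38 lost the call in each of the fits that left out WT naive 2, Tim4KO ID8 1 or Tim4KO ID8 3. Leaving out WT ID8 3 gave 396 calls, 222 higher (1.28% of the 17374 genes then tested) and 174 lower (1%), with 45 of the 46 among them and Per1 the exception. At an unadjusted p under 0.05 there were 888 higher and 871 lower genes, and the median difference of all tested genes was 0.01 on the log2 scale. The smallest difference that was called was 0.45 in absolute log2 value, and 18 of the 46 genes differed at least 2-fold, 8 higher and 10 lower. All 46 had the same sign in naive and in challenged cells, against 51.8% of all tested genes, but a mean over conditions favours such genes, so this count is a property of the choice. In 42 of the 46, the libraries of the genotypes did not overlap within either condition, in the same direction, whereas 267 genes (1.67%) had that pattern among all tested. The test on these same libraries favours that pattern, so this count too is a property of the choice. The exceptions among the 46 were Cd5l and Vat1, which overlapped in challenged cells, and Creb3l2 and Cdk6, which overlapped in naive cells. Among the 42, Dynlt1b and the unnamed feature ENSMUSG00000121395 were barely apart in naive cells. Tim4KO naive 2 had 5 and 3 counts of them, and WT naive 2 had 3 of each. In bulk RNA, a changed level per cell and a changed share of cells with that gene cannot be told apart.

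Averaging over conditions added genes that neither condition called alone. Within naive cells 7 genes were called (0.0439%), of which 6 were among the 46, and within challenged cells 9 (0.0565%), of which 5 were. The remaining 37 of the 46 were called in neither. Of the genes called in challenged cells, Hsp90aa1, Lcn2, Id1 and Basp1 were not called in the average, and of those called in naive cells Map3k6 was not. With WT ID8 3 left out, the average was called by edgeR for Hsp90aa1 (-0.77, adjusted p = 7.27e-05), Id1 (-0.86, adjusted p = 0.00372), Basp1 (-1.04, adjusted p = 0.011) and Map3k6 (0.50, adjusted p = 0.0398), and not for Lcn2 (-1.07, adjusted p = 0.0978). Across the 10229 genes whose normalized count averaged 50 or more, the naive and the challenged differences had a Pearson r of 0.26 and 0.22 without Timd4, and 54.9% had the same sign. Genes are not independent of each other here, and the differences share no library. Of the 100 genes with the smallest naive p besides Timd4, 78 had the same sign in challenged cells, and of the 100 with the smallest p in challenged cells, 72 had the same sign in naive cells.

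**Figure D1:**
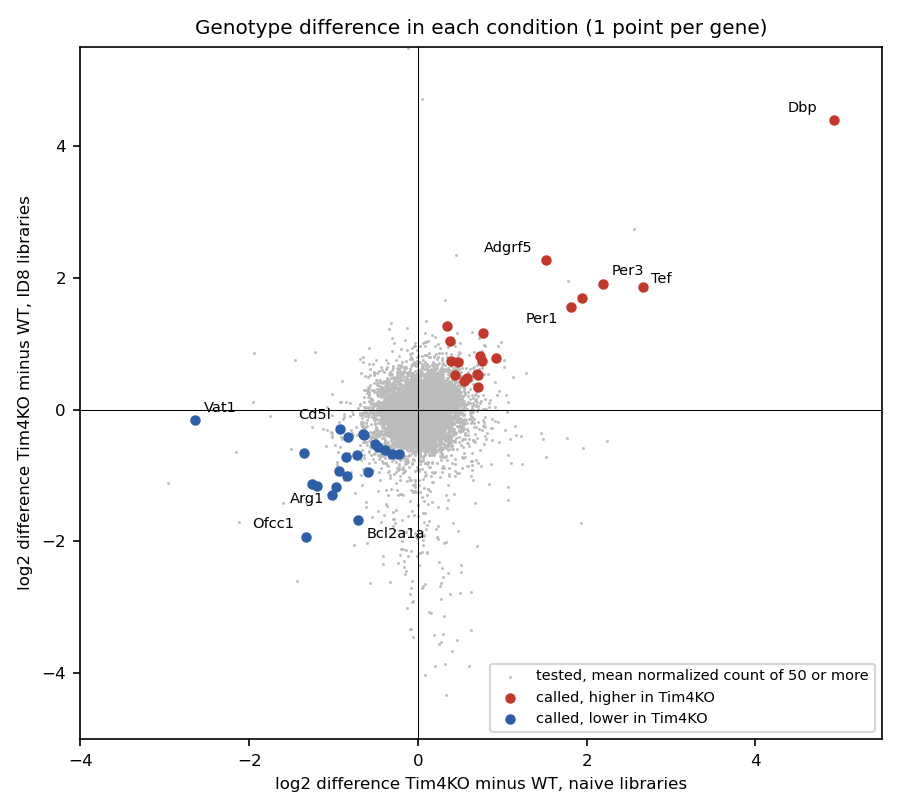
Genotype difference (log2, Tim4KO minus WT) in challenged libraries against that in naive libraries, 1 point per gene whose normalized count averaged 50 or more; points outside the axes, among them Timd4 and Dynlt1b, are not drawn. Called genes lie in the upper right and lower left, with Dbp farthest from the origin at 4.93 and 4.39, and Vat1 near 0 in challenged cells.

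Some of the clock genes that peak with Dbp rose in Tim4KO. The hour of collection is not given for any group in the sources used here, and its part in the clock gene differences was not tested. Of 14 tested genes of the Dbp phase, 4 rose in Tim4KO (Dbp, Tef, Per3 and Per1) and 0 fell, beside 0.138% and 0.151% of all genes. With a further 6, 10 of the 14 were higher at an unadjusted p under 0.05, beside 888 of all 15943 genes. The median over the 14 was 1.31 on the log2 scale, beside 0.01 for all genes. Leaving out WT ID8 3 gave 5 that rose (Dbp, Tef, Per3, Nr1d1 and Nr1d2), beside 1.28% of all genes in that fit. The median over the 14 was then 1.08.

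Dbp (ENSMUSG00000059824), a transcription factor of the clock's output, stood at 0.542, 0.735 and 0.838 CPM in WT naive and at 8.94, 41.5 and 16.7 CPM in Tim4KO naive. In challenged cells it stood at 0.23, 0.0859 and 0.319 CPM in WT ID8, which rested on 2, 1 and 7 counts, and at 6.38, 3.97 and 4.73 CPM in Tim4KO ID8. Every Tim4KO library lay above every WT library, across conditions too, and Dbp was low in absolute terms in WT. Over both conditions the difference was 4.66 (SE 0.42, edgeR adjusted p = 0.000535). limma voom gave a similar size without a call (4.41, adjusted p = 0.13; with sample weights 4.64, adjusted p = 0.0616).

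Tef, a relative of Dbp that binds the same element, read 9.1, 10.5 and 10.6 CPM in WT naive against 34.4, 106 and 53.6 in Tim4KO naive, and 7.48, 10.6 and 10.9 in WT ID8 against 35.2, 35.4 and 34.9 in Tim4KO ID8. The WT libraries of both conditions lay together, and the Tim4KO ID8 libraries differed from each other by less than 1 CPM. Averaged over conditions, the difference was 2.26 (SE 0.23, edgeR adjusted p = 0.00219). Exons of Dbp and Tef overlap those of Sphk2 and Gm17597 on the other strand, and whether the counting used strand is not given in the sources used here.

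Per3, a period gene of the negative limb, read 6.17, 4.41 and 5.52 CPM in WT naive against 11.5, 35.4 and 26.9 in Tim4KO naive, and 3.11, 2.32 and 1.32 in WT ID8 against 7.69, 8.4 and 8.18 in Tim4KO ID8. Tim4KO was higher within each condition without overlap, by 2.20 in naive and 1.91 in challenged cells, and the mean difference was 2.05 (SE 0.26, edgeR adjusted p = 0.00482). Per1, which also responds to glucocorticoids, read 6.39, 8.41 and 13.6 CPM in WT naive against 38.4, 47.7 and 15.5 in Tim4KO naive, and 5.06, 4.47 and 3.79 in WT ID8 against 11.4, 14.2 and 13.3 in Tim4KO ID8. The naive groups came close, with WT naive 3 at 13.6 and Tim4KO naive 3 at 15.5 CPM. Its mean difference was 1.69 (SE 0.26, edgeR adjusted p = 0.026), and 1.62 without a call when WT ID8 3 was left out (edgeR adjusted p = 0.0604).

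Nr1d1 and Nr1d2, the REV-ERB receptors, had differences of similar size that did not pass. Nr1d1 read 8.66, 11.6 and 8.59 CPM in WT naive against 32.6, 76.7 and 62.5 in Tim4KO naive, and 3.45, 1.03 and 15.4 in WT ID8 against 46.9, 46.4 and 51.0 in Tim4KO ID8. No Tim4KO library overlapped a WT library, but WT ID8 3 stood far above the other WT ID8 libraries. The difference over both conditions was 2.65 (SE 0.50, edgeR adjusted p = 0.116). The fit without WT ID8 3 gave 3.54 and a call (edgeR adjusted p = 0.00113). Nr1d2 had a mean difference of 1.87 (edgeR adjusted p = 0.124), and 2.27 without WT ID8 3 (edgeR adjusted p = 0.0177). Per2 had 1.39 (edgeR adjusted p = 0.194) and was higher without overlap in naive cells, while in challenged cells the groups overlapped. Ciart (1.22), Tsc22d3 (0.96), Cry2 (0.60) and Bhlhe41 (0.47) had edgeR adjusted p from 0.304 to 0.468. Hlf (0.09), Bhlhe40 (-0.02) and Usp2 (-0.19) were near 0, and their sign changed between fits.

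Of 6 tested genes of the opposite phase, 0 rose and 0 fell (edgeR, all 12 libraries). At an unadjusted p under 0.05, 3 of the 6 were lower, beside 871 of all 15943 genes. The median of the 6 was -0.60. Leaving out WT ID8 3 gave 2 that fell, Cry1 and Nfil3, beside 1% of all genes in that fit. Arntl, which encodes BMAL1, read 40.2, 44.5 and 37.7 CPM in WT naive against 22.0, 10.8 and 26.8 in Tim4KO naive, and 49.5, 37.4 and 32.7 in WT ID8 against 36.4, 21.3 and 31.6 in Tim4KO ID8. The naive groups did not overlap and the challenged groups did. The mean difference of Arntl was -0.71 (edgeR adjusted p = 0.218), that of Nfil3 -0.69 (edgeR adjusted p = 0.141) and that of Cry1 -1.41 (edgeR adjusted p = 0.264). When WT ID8 3 was left out, Cry1 had -1.65 (edgeR adjusted p = 7.27e-05), Nfil3 -0.74 (edgeR adjusted p = 0.0337) and Arntl -0.76 (edgeR adjusted p = 0.134). Clock (0.10), Npas2 (-0.52) and Rora (-0.05) had edgeR adjusted p of 0.7 to 0.945. Of 20 tested genes that respond to glucocorticoids, 1 rose (Per1) and 0 fell, beside 0.138% and 0.151% of all genes, with a median of 0.19. At an unadjusted p under 0.05, 8 of the 20 were higher and 2 lower, beside 888 higher and 871 lower of all 15943 genes. With WT ID8 3 left out, 3 others rose (Zbtb16, Hsd11b1 and Map3k6), beside 1.28% of all genes in that fit, and Per1 was not called.

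**Figure D2:**
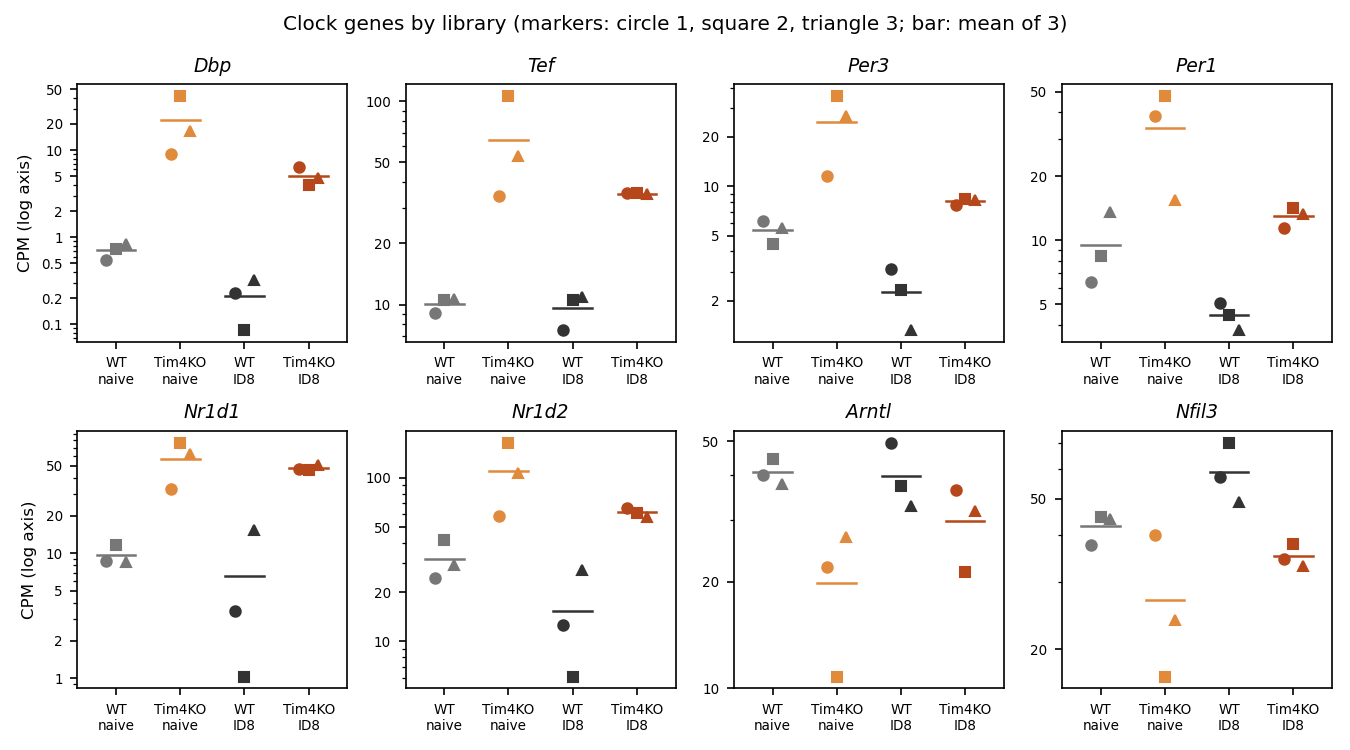
Levels (CPM, log axis) of 8 clock genes in each of the 12 libraries by group, with circle, square and triangle for libraries 1, 2 and 3 and a bar for the mean of the 3. In the panels of Dbp, Tef, Per3 and Per1 the Tim4KO libraries lie above the WT libraries of the same condition, and the Nr1d1 and Nr1d2 panels show WT ID8 3 well above WT ID8 1 and 2.

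Among the genes that fell, enzymes of amino acid breakdown were present. Of 14 tested genes of amino acid metabolism, 0 rose and 2 fell, Tdo2 and Arg1, beside 0.151% of all genes that fell. The median over the 14 was -0.26. The fit lacking WT ID8 3 had 5 of 15 that fell, beside 1% of all genes in that fit, the others being Acod1, Odc1 and Slc3a2. Tdo2, the first enzyme of tryptophan breakdown toward kynurenine, read 4.87, 3.41 and 4.05 CPM in WT naive against 1.07, 2.26 and 1.86 in Tim4KO naive, and 5.52, 5.24 and 10.9 in WT ID8 against 1.31, 1.75 and 1.61 in Tim4KO ID8. Every Tim4KO library lay below every WT library, at a low level throughout. On average the difference was -1.74 (SE 0.25, edgeR adjusted p = 0.00774).

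Arg1, the arginase that hydrolyses arginine and a gene of alternative activation, read 165, 179 and 143 CPM in WT naive and 110, 77.5 and 60.7 in Tim4KO naive. In challenged cells it read 3353, 3690 and 1980 CPM in WT ID8 against 1175, 1583 and 1249 in Tim4KO ID8. The genotypes did not overlap in either condition, although the level itself differed widely between conditions. The mean difference was -1.07 (SE 0.17, edgeR adjusted p = 0.026), with -0.98 in naive and -1.17 in challenged cells. Arg1 was called in 7 of the 12 fits that each left out 1 library and in all 10 other settings. Of 19 tested genes of alternative activation, Arg1 alone was called, beside 0.151% of all genes that fell. At an unadjusted p under 0.05, 3 of the 19 were higher and 2 lower, beside 888 higher and 871 lower of all 15943 genes.

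Bcl2a1a, a survival gene of the BCL2 family and a target of NF-kB, read 2.38, 1.94 and 1.61 CPM in WT naive against 1.23, 1.33 and 1.07 in Tim4KO naive, and 11.3, 13.3 and 12.7 in WT ID8 against 4.07, 4.34 and 3.34 in Tim4KO ID8. Tim4KO was lower without overlap in both conditions, with a mean difference of -1.19 (SE 0.17, edgeR adjusted p = 0.00774). The gene has near-identical copies, and how reads were split between them is uncertain. Bcl2a1b (-0.71, edgeR adjusted p = 0.128) and Bcl2a1d (-0.60, edgeR adjusted p = 0.301) did not pass. With WT ID8 3 left out, Bcl2a1b passed (-0.65, edgeR adjusted p = 0.0264) and Bcl2a1d did not (-0.42, edgeR adjusted p = 0.265). The sum of the 3 copies ran from 21.3 to 32.4 CPM in WT naive against 11.1 to 17.3 in Tim4KO naive, and from 37.1 to 52.4 in WT ID8 against 21.7 to 23.8 in Tim4KO ID8, so the summed levels did not overlap either. Bcl2a1a was the 1 called gene among 35 tested NF-kB targets and inflammatory genes, beside 0.151% of all genes that fell. Of these 35, 0 were higher and 11 lower at an unadjusted p under 0.05, 3 had a difference above 0, and the median was -0.56, beside 888 higher and 871 lower of all 15943 genes. In 17 of the 35 (48.6%) naive and challenged cells had the same sign, against 51.8% of all genes. In the fit lacking WT ID8 3, 10 of the 35 fell and 0 rose, beside 1% and 1.28% of all genes in that fit. Lcn2 (-1.08, edgeR adjusted p = 0.0632) was nearest to the threshold.

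Ofcc1 (orofacial cleft 1 candidate gene) read 3.36, 5.34 and 6.29 CPM in WT naive against 1.72, 2.8 and 1.69 in Tim4KO naive, and 10.2, 8.42 and 13.9 in WT ID8 against 2.84, 2.77 and 2.94 in Tim4KO ID8. All Tim4KO libraries lay below all WT libraries, and the mean difference was -1.63 (SE 0.20, edgeR adjusted p = 0.00287). Cd5l, which encodes a secreted scavenger protein of macrophages, read 1166, 1069 and 1180 CPM in WT naive against 613, 607 and 579 in Tim4KO naive, and 2046, 2359 and 2579 in WT ID8 against 2134, 1484 and 2043 in Tim4KO ID8. The naive groups were far apart and the challenged groups overlapped through Tim4KO ID8 1. Its mean difference was -0.61 (SE 0.10, edgeR adjusted p = 0.026), made of -0.93 in naive and -0.30 in challenged cells. Cd5l was the 1 called gene among 12 tested scavenger receptors and related genes, beside 0.151% of all genes that fell. At an unadjusted p under 0.05, 2 of the 12 were higher and 2 lower, beside 888 higher and 871 lower of all 15943 genes.

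**Figure D3:**
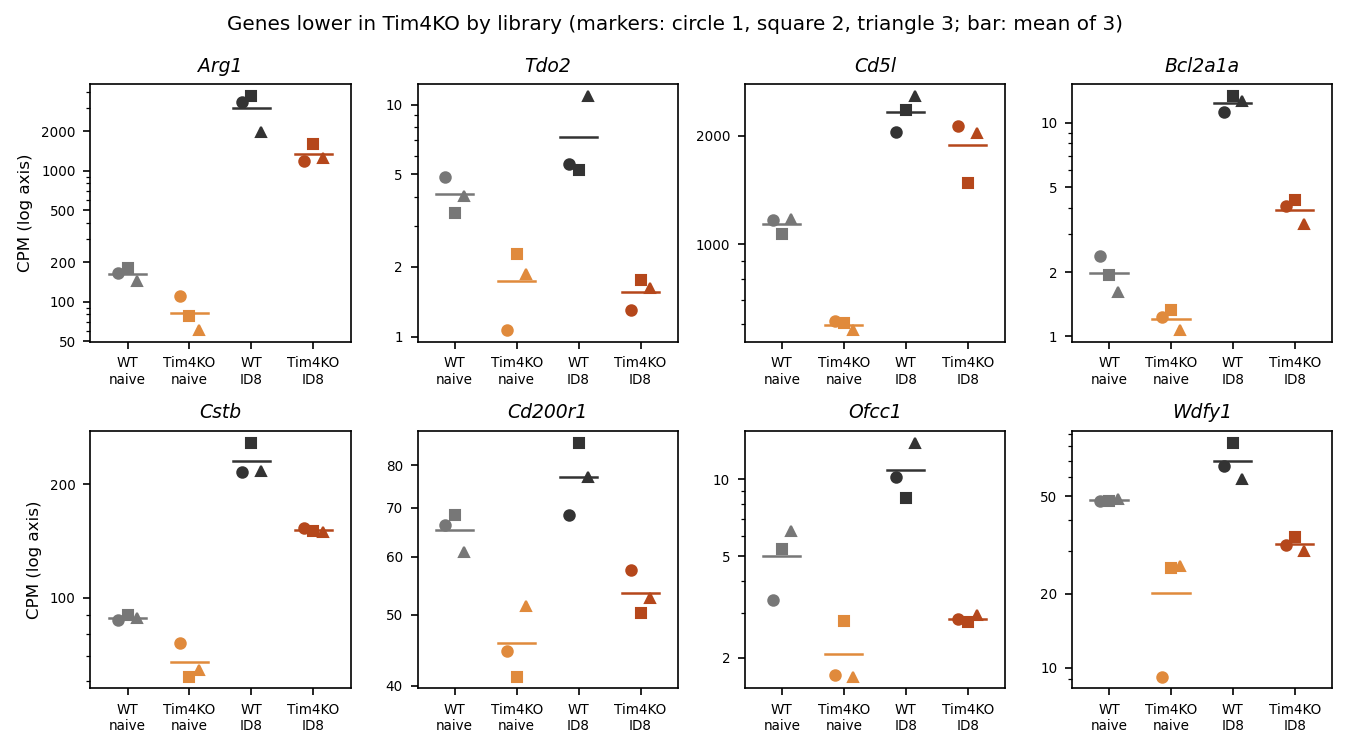
Levels (CPM, log axis) of 8 genes that fell in Tim4KO in each of the 12 libraries, with circle, square and triangle for libraries 1, 2 and 3 and a bar for the mean of the 3. The genotypes are apart in both conditions in 7 panels, while in the Cd5l panel Tim4KO ID8 1 and 3 lie among or near the WT ID8 libraries.

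Several surface and intracellular regulators fell by smaller amounts. Cd200r1, an inhibitory receptor of myeloid cells, read 60.8 to 68.4 CPM in WT naive against 41.1 to 51.4 in Tim4KO naive, and 68.4 to 85.8 in WT ID8 against 50.3 to 57.5 in Tim4KO ID8. Cstb, an inhibitor of lysosomal cysteine proteases, read 87.0 to 89.9 CPM in WT naive against 61.6 to 75.9 in Tim4KO naive, and 216 to 258 in WT ID8 against 149 to 153 in Tim4KO ID8. Their mean differences were -0.52 and -0.50 (edgeR adjusted p = 0.0283 and 0.026). Both were chosen for mention after their values were seen, as were Cdk6 (-0.45), Hpf1 (-0.49), Dpysl3 (-0.51) and Tceal9 (-0.52), which also fell. Exons of Cdk6 overlap those of Gm17590 on the other strand.

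Wdfy1, an endosomal adaptor, read 47.9 to 48.9 CPM in WT naive and 9.19, 25.6 and 26 in Tim4KO naive, and 59.1 to 82.8 in WT ID8 against 29.9 to 34.0 in Tim4KO ID8. The library Tim4KO naive 1 was the lowest by a wide margin, and Wdfy1 was still called without it. Across the 12 fits that each left out 1 library, Wdfy1 was called in 3. Averaged over conditions, the difference was -1.19 (edgeR adjusted p = 0.0347). Htr2a, a serotonin receptor (-1.18), Epb41l3, a membrane skeleton protein (-1.16), Fn3krp, which repairs glycated proteins (-0.94), Klk8, a serine protease (-0.92), Glipr2 (-0.77), the GTPase gene Gimap9 (-0.71) and Colca2 (-0.62) fell as well, with edgeR adjusted p from 0.026 to 0.0492 and no overlap of genotypes within either condition. Klk8, Wdfy1 and Colca2 share exonic sequence on the other strand with another annotated gene.

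Cd24a, a surface glycoprotein also found on B cells and neutrophils, fell by 1.0 on the log2 scale (edgeR adjusted p = 0.0398), from 101.1 to 186 CPM in WT naive to 39.1 to 68.6 in Tim4KO naive and from 226 to 313 in WT ID8 to 159 to 191 in Tim4KO ID8. The 10 B cell markers summed to 19 to 28.3 CPM in WT naive against 10.5 to 16.7 in Tim4KO naive, without overlap, and to 4.04 to 9.90 in WT ID8 against 6.38 to 7.75 in Tim4KO ID8, with overlap. The 10 neutrophil markers summed to 8.75 to 9.22 CPM in WT naive, 9.19 to 11.2 in Tim4KO naive, 12 to 32.2 in WT ID8 and 22.9 to 33.9 in Tim4KO ID8. Cd24a itself was above these sums in every library, but a marker sum does not measure how much Cd24a such cells carried. The part of either cell type in its difference was not tested.

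Among the genes that rose outside the clock, 4 belong to the handling of misfolded protein in the endoplasmic reticulum. Herpud1, a component of the degradation machinery there, read 61.7, 76.1 and 89.3 CPM in WT naive against 143, 135 and 107 in Tim4KO naive, and 51.7, 79.7 and 89.5 in WT ID8 against 122, 134 and 114 in Tim4KO ID8. Tim4KO was higher without overlap in both conditions. The difference over both conditions was 0.75 (SE 0.13, edgeR adjusted p = 0.0342).

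Syvn1, the ubiquitin ligase of the same machinery (0.49), Dnajb9, a chaperone of the reticulum (0.48), and Creb3l2, a membrane-bound transcription factor (0.71), rose with edgeR adjusted p from 0.0336 to 0.0386. Syvn1 shares exonic sequence with Mrpl49, and Dnajb9 with Mir5627, on the other strand. A list of 31 tested genes of this response was written after these values were seen and with these genes in it, so its count is no independent evidence. In it 4 rose and 0 fell, beside 0.138% and 0.151% of all genes, and the median was -0.03. At an unadjusted p under 0.05, 7 of the 31 were higher and 4 lower, beside 888 higher and 871 lower of all 15943 genes. A fit that lacked WT ID8 3 added Sec16a, giving 5 that rose, beside 1.28% of all genes in that fit. Chosen after their values were seen, the central chaperone Hspa5 had a difference of -0.10 (edgeR adjusted p = 0.897) and the regulator Xbp1 0.08 (edgeR adjusted p = 0.818).

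The other named genes that rose were of mixed function. Adgrf5, an adhesion receptor, read 3.68, 5.01 and 5.31 CPM in WT naive against 6.23, 13.2 and 20.8 in Tim4KO naive, and 1.27, 0.344 and 2.05 in WT ID8 against 7.53, 4.52 and 6.74 in Tim4KO ID8. The genotypes did not overlap within a condition, though the naive Tim4KO libraries were widely spread. Its mean difference was 1.89 (SE 0.35, edgeR adjusted p = 0.045). Dnah12, a dynein heavy chain (0.86), Cd177, a surface glycoprotein best known from neutrophils (0.77), Esr1, the oestrogen receptor alpha (0.62), Alpk1, a sensor kinase for bacterial sugars (0.62), and Arhgap39, a GTPase-activating protein (0.60), rose with edgeR adjusted p from 0.026 to 0.0485, each without overlap within either condition.

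Of 25 tested receptors and mediators that recognise phosphatidylserine or engulf dying cells, 1 rose and 1 fell, beside 0.138% and 0.151% of all genes, the latter being Timd4. At an unadjusted p under 0.05, 5 of the 25 were higher and 1 lower, beside 888 higher and 871 lower of all 15943 genes. The median of the 25 was 0.02. Itgb3 and Abca7 rose along with Scarf1 when WT ID8 3 was left out, giving 3, beside 1.28% of all genes in that fit. Scarf1, a scavenger receptor that binds dying cells through C1q, was the one that rose. It read 14.6, 14.7 and 17.4 CPM in WT naive against 28.3, 25.2 and 22.9 in Tim4KO naive, and 20.1, 24.4 and 21.6 in WT ID8 against 28.6, 28.5 and 27.0 in Tim4KO ID8. On average the difference was 0.53 (SE 0.10, edgeR adjusted p = 0.0347), and it was called in 2 of the 12 fits that each left out 1 library. Pltp, a phospholipid transfer protein (0.56), and F7, coagulation factor VII (0.53), rose as well and were chosen after their values were seen. Exons of Pltp overlap those of Ctsa on the other strand.

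**Figure D4:**
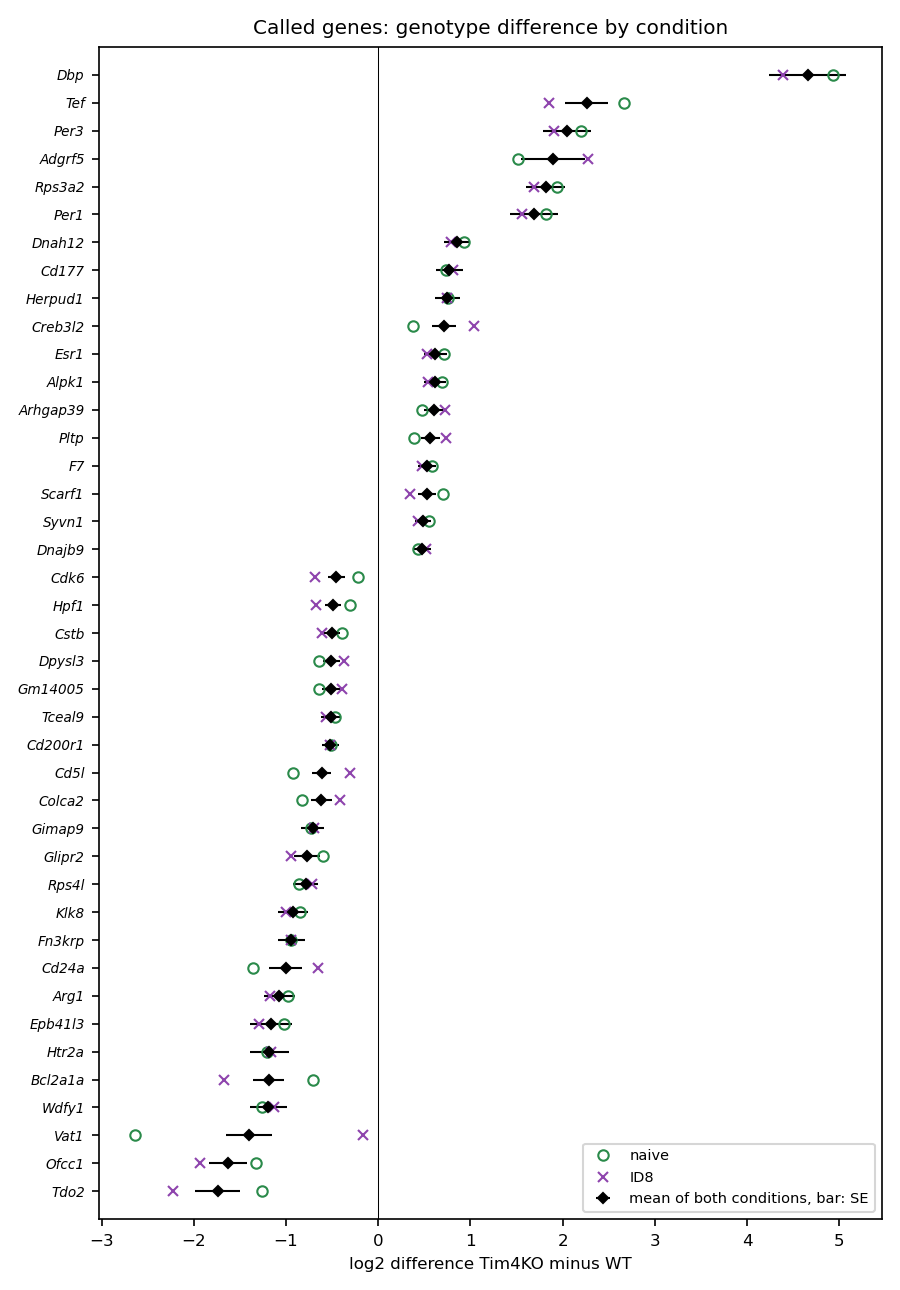
Log2 difference (Tim4KO minus WT) of 41 called genes with a symbol, without Timd4, Dynlt1b and 1 gene that is not reported here, as the mean of both conditions with its SE (diamond and bar) and separately for naive (circle) and challenged (cross) libraries. Arg1 has -0.98 in naive and -1.17 in challenged cells, while Vat1 has -2.64 in naive and -0.16 in challenged cells.

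Some called features belong to families of near-identical genes or could not be named, and their values are uncertain for that reason. Rps3a2, annotated as a processed pseudogene of a ribosomal protein gene, read 6.39, 9.68 and 8.03 CPM in WT naive against 45.4, 27.8 and 20.2 in Tim4KO naive, and 6.91, 7.56 and 7.07 in WT ID8 against 16.3, 31.8 and 21.6 in Tim4KO ID8. All Tim4KO libraries lay above all WT libraries, with a mean difference of 1.82 (SE 0.21, edgeR adjusted p = 0.00219). Its parent Rps3a1 had a difference of -0.32 (edgeR adjusted p = 0.151), and the sum of both was 747 to 867 CPM in WT naive against 610 to 720 in Tim4KO naive, which is the opposite direction. Rps4l, likewise annotated as a pseudogene, fell by 0.79 (edgeR adjusted p = 0.0283), beside -0.16 for its parent Rps4x (edgeR adjusted p = 0.511).

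Dynlt1b, a dynein light chain gene, had 0, 3 and 2 counts in WT naive against 502, 5 and 658 in Tim4KO naive, and 1, 3 and 0 in WT ID8 against 339, 502 and 447 in Tim4KO ID8. In 5 of the 6 Tim4KO libraries it was abundant, and Tim4KO naive 2, with 5 counts, was close to WT. The feature ENSMUSG00000121395, which had no name in the annotation used, had the same exception, with 1, 3 and 1 counts in WT naive against 77, 3 and 220 in Tim4KO naive, and 2, 4 and 1 in WT ID8 against 34, 44 and 59 in Tim4KO ID8. Both rose by edgeR (adjusted p = 0.0347 and 0.026), and no fold is given because of the near-absent WT counts. Tim4KO naive 2 had the Timd4 and Dbp levels of its label. The copies Dynlt1a (-0.16), Dynlt1c (0.01) and Dynlt1f (-0.15) had edgeR adjusted p of 0.818 to 0.987. The summed level of the 4 copies ran from 31.9 to 34.8 CPM in WT naive against 40.9 to 77.2 in Tim4KO naive, and overlapped between genotypes in challenged cells through WT ID8 3, at 75.7 CPM. The gene model Gm14005 fell by 0.51 and the unnamed feature ENSMUSG00000121096 rose by 0.81 (edgeR adjusted p = 0.045 for each). Exons of Gm14005 overlap those of Gm14009 on the other strand and of Gm14012 on the same strand.

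Whether the genotype difference itself differed between conditions was tested by the interaction, in which edgeR called 0 of 15943 genes (0%) and 1186 had an unadjusted p under 0.05. Timd4 came nearest to a call (edgeR adjusted p = 0.0888), and its residual level was lower in Tim4KO ID8 than in Tim4KO naive. Without WT ID8 3 the interaction called 368 genes, DESeq2 called 11 with all libraries, and without Tim4KO naive 1 edgeR called 3. Of the 46 called genes, 7 had an unadjusted interaction p under 0.05. Vat1, a membrane protein of vesicles, had the smallest of these besides Timd4 (edgeR adjusted p = 0.481). It read 17.9, 21.4 and 18.7 CPM in WT naive and 5.74, 1.33 and 2.03 in Tim4KO naive, but 41.2, 36.6 and 56.6 in WT ID8 against 39.4, 32.9 and 48.1 in Tim4KO ID8. Its mean difference of -1.40 (edgeR adjusted p = 0.045) thus lay in the naive libraries, and the additive model gave no call (-1.22, edgeR adjusted p = 0.427). Its exons overlap those of Rnd2 on the other strand. Creb3l2 and Cdk6 had larger differences in challenged cells, 1.04 and -0.68, than in naive cells, 0.38 and -0.22, and the additive model did not call them either (edgeR adjusted p = 0.078 and 0.111). That model kept 37 of the 46 calls and also lost those of Cd5l, Scarf1, Cd24a, Colca2, Gm14005 and ENSMUSG00000121096.

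Other gene lists that describe what these macrophages do gave no call at the edgeR threshold with all 12 libraries. Among 24 tested genes of MHC class I presentation, 1 was higher and 1 lower at an unadjusted p under 0.05, with a median of 0.06, and among 13 of class II and costimulation 1 was higher and 0 lower, with a median of 0.16. Of 29 interferon-stimulated genes, 1 was higher and 0 lower at that level, and 17.2% had the same sign in both conditions, against 51.8% of all tested genes. Of 28 identity genes of large peritoneal macrophages, 5 were higher and 2 lower, with a median of 0.03. Over all 15943 genes, 888 were higher and 871 lower at that level. Wdfy4 of the class I list and H2-DMa of the class II list rose when WT ID8 3 was left out, and the interferon and identity lists again had 0 calls.

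Metabolic and degradative lists had medians from -0.12 to 0.11, beside 0.01 for all genes. At an unadjusted p under 0.05, 888 of all 15943 genes were higher and 871 lower. Of 38 lysosomal genes, 1 was higher and 6 lower at an unadjusted p under 0.05, and 0 passed. Of 24 glycolysis and hypoxia genes, 0 were higher and 7 lower, with a median of -0.12, and of 32 genes of oxidative phosphorylation 0 were higher and 2 lower, with the same median. A difference above 0 was found in 4 of these 24 and 1 of these 32, against 15 of the 38 lysosomal and 18 of 27 sterol and lipid genes. Of 27 sterol and lipid genes, 4 were higher and 1 lower, with Apoe at 0.49 (edgeR adjusted p = 0.128), and with WT ID8 3 left out Apoe rose (0.41, edgeR adjusted p = 0.0357). The 40 cell cycle genes had a median of -1.0 with 0 calls and 1 lower gene at an unadjusted p under 0.05, beside the high sum of these genes in WT ID8 3, and a median of 0.33 with 0 calls when that library was left out. Heat shock genes (28 tested), complement genes (18), actin cytoskeleton genes (30) and genes of the ID and TGF-beta family (26) had 0 calls, with medians from -0.12 to 0.06. With WT ID8 3 left out, Hsp90aa1, Hsp90ab1 and Hspe1 of the heat shock list, C5ar1 and Cd55 of the complement list, Basp1 and Marcks of the actin list, Id1 and Hif1a fell, while Myh9, Flna and Eng rose. The genes named from these lists were chosen after their values were seen.

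The number of calls depended on single libraries. Leaving out 1 library at a time gave 8 to 46 called genes in 11 of the 12 fits and 396 without WT ID8 3. The genes called in all 12 fits were Timd4, Dbp, Tef, Per3, Rps3a2, Ofcc1, Bcl2a1a and Tdo2. Each of the other 38 lost its call without WT naive 2, without Tim4KO ID8 1 and without Tim4KO ID8 3, and without WT naive 1 each of them but Gimap9 did. Their highest edgeR adjusted p over the 12 fits ran from 0.0956 (Arg1 and Fn3krp) to 0.217 (Cdk6 and Tceal9). Cd5l, Cstb and Cd200r1 were called in 4 of the 12 fits, Herpud1 and Adgrf5 in 3 and Syvn1 in 2. Esr1, Cd177, Dnajb9, F7, Dpysl3, Cdk6 and ENSMUSG00000121096 were each called in 1. Per1 was called in 4, and without WT naive 2 its edgeR adjusted p was 0.0966. In the 10 other settings, Esr1 was called in 6, and Epb41l3 and ENSMUSG00000121096 in 5 each. No called gene changed sign in any fit. WT ID8 3 lay nearer to the Tim4KO ID8 mean than to the mean of the other WT ID8 libraries for 4 of the 45 called genes besides Timd4. These genes were called with WT ID8 3 among the WT libraries, which favours a low count. The share over all tested genes was not computed, so the count does not show how that library behaved in general.

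**Figure D5:**
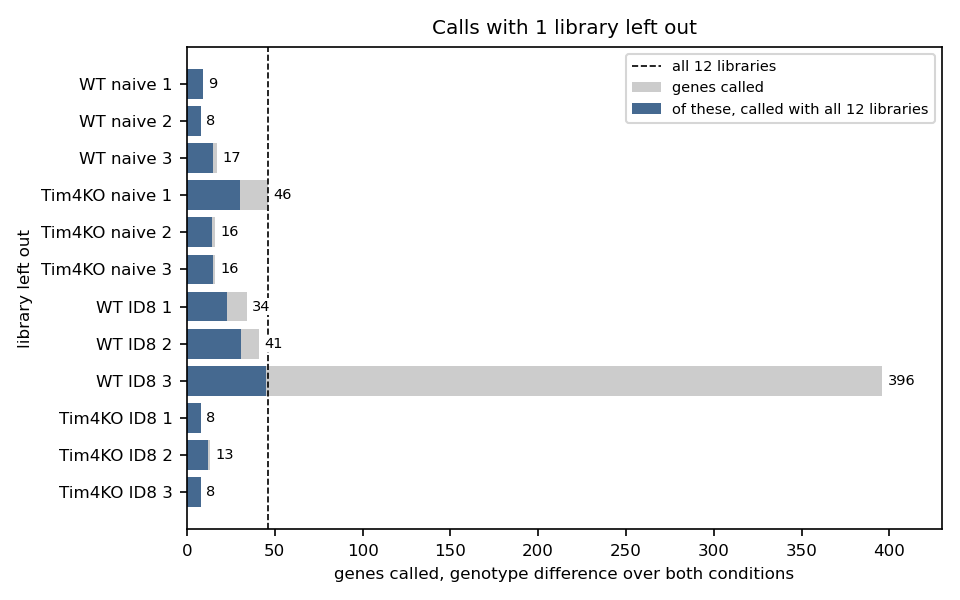
Number of genes called for the genotype difference over both conditions when 1 library is left out, with the genes also called with all 12 libraries in dark blue and the dashed line at 46. Without WT ID8 3 the number is 396, and without WT naive 2, Tim4KO ID8 1 or Tim4KO ID8 3 it is 8.

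The position of the called genes relative to the targeted gene was examined next. Within 10 Mb of Timd4 on chromosome 11, in the annotation used for names, 122 genes were tested and 0 were called besides Timd4, and 13 of them (10.7%) had an unadjusted p under 0.05, beside 1759 of all 15943 tested genes. The 44 called genes with a position lay on 20 chromosomes, with 5 on chromosome 11 (Timd4, Per1, Fn3krp, Scarf1 and Vat1). The share of all tested genes on that chromosome was not computed, so this count stands without a comparison.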

How the data were processed

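Raw counts of reads per Ensembl gene were deposited by the authors in a single table with 57010 rows and a column for each of 12 libraries. That they are raw was read from the values, which are whole numbers with a different total per library. Per the labels' protocols, the RNeasy micro kit was used for RNA and the SMART-Seq mRNA LP kit for libraries. FastQC and STAR 2.5 were used, per the submitters' processing notes, which name both mm10 and GRCm39, so no coordinates of the counted genes are given. The counting program, its annotation and how it treated strand or multi-mapping reads are not given in the sources used here. All columns were matched by name. Gene names, overlaps and neighbours came from GENCODE vM21 (52029 of 57010 identifiers named). Promoters came from RefSeq on GRCm38.p6.

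Genes were kept by filterByExpr (15943). One edgeR 4.0.16 quasi-likelihood model (R 4.3.3) with TMM scaling, a mean per group, robust dispersions and 8 residual degrees of freedom was fitted to all 12 libraries. The contrast was the mean of the naive and the challenged Tim4KO minus WT differences. Two-sided F tests were adjusted by Benjamini-Hochberg over all tested genes and called under 0.05. The SE is the absolute log2 difference divided by the square root of F. Levels are CPM with TMM factors. Molecular identifiers were not used, so counts may include PCR duplicates, and a floor of 3 counts corresponds to 0.137 to 0.399 CPM depending on the library. The procedure was tested on simulated counts.

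Named genes were Timd4, the 15 called genes that rose most and the 15 that fell most (mean normalized count of at least 50, no gene models), up to 3 genes per list by p and every clock gene; others are said to have been chosen after their values were seen. One called gene is counted but not reported here by name. The members and lists were chosen with earlier results of these data known, and no list was tested as a set. Alternatives were DESeq2 size factors, upper-quartile scaling, no filter, a mean count of at least 50, an additive model, DESeq2 1.42.0, limma 3.58.1 voom without and with sample weights, a replicate block, a background covariate (reads in olfactory and vomeronasal receptor genes) and each library left out.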

Additional observations from a re-analysis of the deposited data

How the results depend on the processing

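With all 12 libraries, 46 genes were called, 22 higher and 24 lower, and 0 for the interaction. No filter on low counts gave 195 (71 higher, 124 lower; interaction 73), the DESeq2 test 210 (79 and 131; interaction 11), voom with sample weights 310 (147 and 163; interaction 4) and the background covariate 127 (76 and 51; interaction 2). Of the 46, these called 42, 46, 43 and 45. DESeq2 size factors, upper-quartile scaling, a mean count of at least 50, the additive model and voom gave 39 to 52, and the additive model has no interaction. With 1 library left out, the number ran from 8 to 396, the higher genes from 4 to 222, the lower from 4 to 174 and the interaction from 0 to 368, each highest without WT ID8 3.

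The labels number the libraries 1 to 3 in each group without saying that a number marks a shared mouse, batch or day. Same-numbered libraries had correlations of their deviations from -0.09 to 0.33, with 6 of 18 pairs over 0.1. All 3 pairs of WT naive with WT ID8 were over 0.1 (0.1004 to 0.31), but 2 of 3 between the naive genotypes and 0 of 3 between the challenged genotypes were, so the numbers were not taken as pairs, and 5 of 12 libraries correlated best with their own number. With the replicate block 10 genes were called, 5 higher and 5 lower, all among the 46, and 0 for the interaction. These were Timd4, Dbp, Tef, Per3, Rps3a2, Cd177, Arg1, Tdo2, Ofcc1 and Bcl2a1a, and the other 36 were not called in that fit, among them Per1, Cd5l, Herpud1, Cstb and Scarf1.

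Among uncalled clock genes, signs turned for Hlf (-0.26 with the background covariate, and -0.29 without WT ID8 3 to 0.42 without WT ID8 1), Bhlhe40 (-0.0844 without Tim4KO naive 2 to 0.0657 without Tim4KO naive 3), Usp2 (-0.31 without WT naive 2 to 0.0232 without WT naive 1), Npas2 (0.40 with voom, and -0.87 without WT ID8 3 to 0.54 without WT ID8 1) and Rora (0.0977 with weighted voom, 0.0116 with the background covariate, and -0.16 without Tim4KO naive 3 to 0.0795 without Tim4KO naive 1). The cause was not tested. Low counts limit Dbp, Dynlt1b and ENSMUSG00000121395, whose WT levels lie near the floor of 3 counts in most libraries.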
